A study of Mus musculus with 2 samples.

Results

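Immediate early genes are the genes a cell transcribes first after a stimulus, without needing new protein. Growth factors, cytokines, stress and the warm enzymatic digestion that turns a tissue into single cells all act through MAP kinases on transcription factors that are already present, mainly the serum response factor with its ELK partners and CREB. The products are largely transcription factors themselves, together with phosphatases that switch the signal off again, and their short-lived transcripts usually decay quickly. In tumors they are read both as signs of signaling in the tissue and as signs of how the tissue was handled, and single-cell counts alone do not separate these sources.

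The set described here has 10 members of the 55450 genes in the count matrices, chosen by symbol as immediate early genes that are often raised by tissue dissociation. The rule uses symbols and no values, but the set was proposed with earlier results of these data known. They are the AP-1 subunits Fos, Fosb, Jun and Junb, the zinc finger factor Egr1, the stress-induced factor Atf3, the nuclear receptors Nr4a1 and Nr4a3, the nuclear protein Ier2 and the MAP kinase phosphatase Dusp1. All 10 symbols were present once.

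The data came from EMT6 tumors, a mouse mammary tumor line grown in BALB/c mice after injection of 200000 cells, and were read with 10× Genomics 3′ single-cell sequencing, where molecules are counted through their unique molecular identifiers (UMIs). Both groups received Olaparib, a PARP inhibitor, at 50 mg/kg, and LLY-283, a PRMT5 inhibitor, at 50 mg/kg for 3 days on and 4 days off. The Combo group had anti-PD-1 antibody in addition, 200 µg per dose with doses 3 days apart. Each group was 1 library, here called the dual library (Olaparib + LLY-283) and the Combo library, made from tumors of 3 mice that were pooled, and the labels give the same digestion for both, 20 min at 37 °C with 0.35% collagenase and 2 mg/ml papain. No untreated tumor and no sample fixed before digestion was analysed here. With 1 library per group no test was possible, and the treatment, the pool of mice, the handling and the library cannot be told apart. All intervals are 95% intervals that cover counting error only.

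The deposited matrices had 16115 cells with 147214934 UMIs for the dual library and 7542 cells with 162522700 UMIs for the Combo library. Cells with 20% or more mitochondrial UMIs made up 0.534% of the first library and 21.0% of the second, and 39 barcodes occurred in both. After filtering, 13974 and 5672 cells were used, and they were placed in classes by UMIs of marker genes. These classes were not clustered and are ranges of a marker rate. In the dual and Combo libraries they held 9923 and 2735 tumor cells, 768 and 525 macrophages, 27 and 35 monocytes, 648 and 1197 neutrophils, 60 and 35 T or NK cells, 154 and 51 cancer-associated fibroblasts (CAF) and 29 and 50 muscle-like (myogenic) cells. Depth differed between the libraries: the median was 9034 and 46818 UMIs in tumor cells, 1973 and 11227 in macrophages, and 663.5 and 1895 in neutrophils. All markers of the macrophage, monocyte, neutrophil, T or NK and myogenic classes were more than 2-fold higher in their class than in other cells of the same library. Only 5 of 8 epithelial markers were so in tumor cells, and 1 of the 8 was at 0 in the tumor cells of the dual library. The classes were defined by these same markers, so such differences are largely fixed in advance and are no check of the classes. Between 2.62% and 4.46% of the tumor cells, macrophages and neutrophils lay within 1.5 times of the marker rate that defined them. The monocytes also carried macrophage markers, with medians of 23.2 and 24.1 UMIs per 10000, above the macrophage cut of 10. Cells passing both cuts were given to the class whose marker rate was higher relative to its cut.

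Coordinates are those of mm10. Fos (ENSMUSG00000021250) spans chr12:85473890-85477273, Fosb (ENSMUSG00000003545) chr7:19302696-19310051, Jun (ENSMUSG00000052684) chr4:95049034-95052222 and Junb (ENSMUSG00000052837) chr8:84974484-84978718. Atf3 (ENSMUSG00000026628) spans chr1:191170296-191218039, Nr4a1 (ENSMUSG00000023034) chr15:101254269-101274795 and Nr4a3 (ENSMUSG00000028341) chr4:48045153-48086447. Ier2 (ENSMUSG00000053560) spans chr8:84661331-84662852 and Dusp1 (ENSMUSG00000024190) chr17:26505590-26562128. The identifier of Egr1 is ENSMUSG00000038418. Jun and Ier2 have a single exon in the annotation.

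Promoter windows of 300 bases, from 250 before to 50 after the start of transcription, were taken from RefSeq (GRCm38.p6) for 8 of the 10 members. They were searched on both strands for the full cyclic AMP response element TGACGTCA, its 5-base core TGACG, the AP-1 element TGANTCA, and the CArG box, which is the element of the serum response factor. The core overlaps the full element. It was found in 7 of the 8 windows, in all but that of Jun, and in 23.0% of the 27025 genes with a window. The full element was in the Dusp1 window alone, 143 bases before the start, against 2.03% of all genes. Neither the AP-1 element (8.97% of all genes) nor the CArG box (1.81%) was in any of the 8 windows, which says only that these letters are not within them. The windows of Fos, Dusp1 and Nr4a1 are shown for their matches of the core over both strands, 2, 3 and 4, and that of Jun because it holds none. Of the 3 in Dusp1, those at 143 and 140 bases before the start are the 2 strands of the full element, a single stretch. Matches are in capitals, with the strand of the gene read 5′ to 3′.
Fos, chr12:85473640-85473939, plus strand: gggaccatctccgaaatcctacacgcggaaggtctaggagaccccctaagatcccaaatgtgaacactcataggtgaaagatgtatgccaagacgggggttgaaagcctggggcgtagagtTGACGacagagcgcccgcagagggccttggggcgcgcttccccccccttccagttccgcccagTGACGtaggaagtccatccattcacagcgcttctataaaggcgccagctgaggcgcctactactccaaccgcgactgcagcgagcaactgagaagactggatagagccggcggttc
Dusp1, chr17:26508423-26508722, minus strand: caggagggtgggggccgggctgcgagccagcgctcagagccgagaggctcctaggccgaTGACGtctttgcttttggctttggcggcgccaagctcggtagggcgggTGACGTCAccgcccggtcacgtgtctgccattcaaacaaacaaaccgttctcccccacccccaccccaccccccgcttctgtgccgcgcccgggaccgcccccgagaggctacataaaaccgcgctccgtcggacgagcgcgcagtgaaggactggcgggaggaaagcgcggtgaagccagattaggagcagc
Nr4a1, chr15:101266596-101266895, plus strand: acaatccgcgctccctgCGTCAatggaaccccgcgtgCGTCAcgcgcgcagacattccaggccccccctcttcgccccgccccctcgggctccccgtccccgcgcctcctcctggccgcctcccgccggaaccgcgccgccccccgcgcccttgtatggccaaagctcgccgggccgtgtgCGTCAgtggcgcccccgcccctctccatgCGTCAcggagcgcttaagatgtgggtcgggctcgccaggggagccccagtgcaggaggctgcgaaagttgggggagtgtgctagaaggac
Jun, chr4:95052173-95052472, minus strand: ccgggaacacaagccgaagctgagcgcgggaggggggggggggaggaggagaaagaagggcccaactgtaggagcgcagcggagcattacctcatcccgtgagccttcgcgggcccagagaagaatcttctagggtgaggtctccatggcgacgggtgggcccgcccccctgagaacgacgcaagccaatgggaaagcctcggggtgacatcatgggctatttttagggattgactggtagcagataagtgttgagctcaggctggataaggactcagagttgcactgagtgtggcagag
A match is a description of the letters and not a binding site.

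Among the classes with 20 cells in both libraries, monocytes, neutrophils and macrophages had the highest summed levels of the immediate early genes. Levels are given as a gene's UMIs over all cells of a class per 1000000 UMIs of that class (CPM). Summed over the 10 members, monocytes were at 11888 CPM (interval 10943 to 12894) in the dual library and 12794 (12365 to 13234) in the Combo library. Neutrophils were at 8190 (7952 to 8433) and 13593 (13442 to 13744), and macrophages at 6587 (6467 to 6709) and 6086 (6025 to 6148). Below them came CAF at 4611 and 4219 CPM, tumor cells at 4102 (4090 to 4114) and 3217 (3207 to 3227), T or NK cells at 2832 and 2350, and myogenic cells at 2148 (1703 to 2673) and 1413 (1157 to 1710). The highest class thus exceeded the lowest 5.53-fold in the dual library and 9.62-fold in the Combo library. Neutrophils and monocytes exchanged the first place between the libraries, and the order of the other 5 classes was the same. Neutrophils of 500 to 700 and 700 to 1000 UMIs in the Combo library were at 5918 and 5611 CPM, below its monocytes. In the dual library the intervals of T or NK and myogenic cells overlapped, and no other neighbors among the 7 classes did. Cells of 3 further classes were too few in 1 of the libraries. The 23 dendritic cells of the Combo library were at 6851 CPM, and 21 endothelial and 42 osteoclast-like cells of the dual library at 3289 and 2415.

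**Figure D1:**
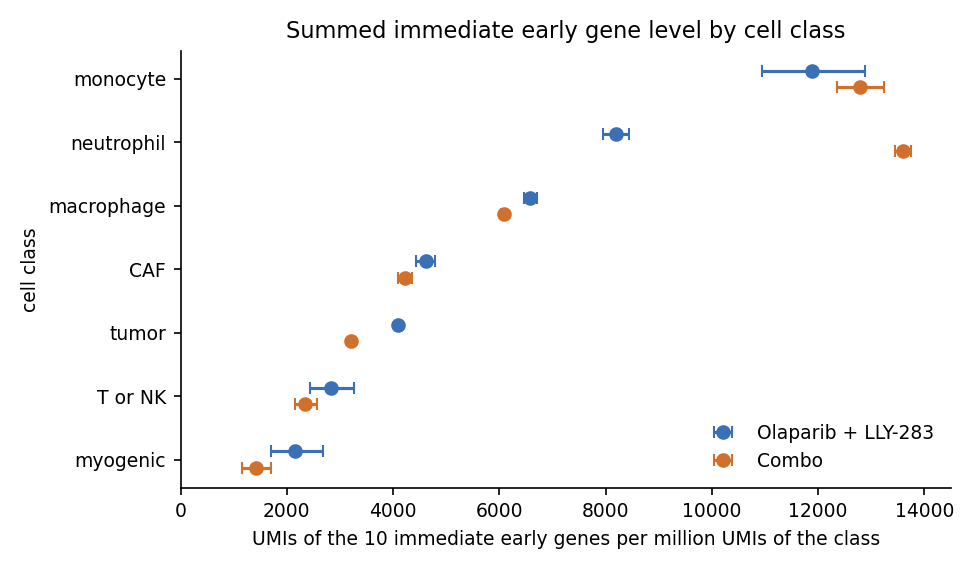
Summed UMIs of the 10 immediate early genes per 1000000 UMIs (x axis) in the 7 cell classes with at least 20 cells in each library. Points are the values of the dual (blue) and Combo (orange) libraries with exact 95% Poisson intervals, 1 library per group; monocytes, neutrophils and macrophages lie between 6086 and 13593 CPM, and the other 4 classes at or below 4611 CPM.

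Fos, which pairs with a JUN protein to form AP-1, showed the widest absolute range of the AP-1 genes over the classes. It was highest in monocytes, at 3936 CPM (3400 to 4532) in the dual library and 4784 (4523 to 5056) in the Combo library. Macrophages were at 2127 and 1933, neutrophils at 1513 and 2181, CAF at 1228 and 917, tumor cells at 1134 and 749, T or NK cells at 855 and 340, and myogenic cells at 269 and 293 CPM. Monocytes stood above every other class in both libraries. In the dual library the intervals of CAF and tumor cells overlapped, and in the Combo library those of T or NK and myogenic cells did.

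Fosb, a further FOS-family partner, followed another order. Monocytes were at 387 CPM (233 to 605) and 434 (358 to 522), macrophages at 276 and 253, CAF at 260 and 282, tumor cells at 207 and 148, and neutrophils at 141 (111 to 176) and 115 (102 to 130). Neutrophils, which were high in most members, were therefore below tumor cells, CAF and macrophages for Fosb in both libraries. The highest Fosb value was that of the dendritic cells of the Combo library, 521 CPM (428 to 628), whose interval overlapped that of monocytes.

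Jun, the AP-1 subunit that can also pair with itself, was the most even member across the classes. Tumor cells were at 910 CPM (905 to 916) in the dual library and 810 (805 to 815) in the Combo library, and monocytes at 897 (652 to 1204) and 762 (660 to 875). CAF had 760 and 725 CPM, neutrophils 729 and 744, and macrophages 709 and 630. T or NK cells were at 325 and 317 and myogenic cells at 510 and 213. Tumor cells had the highest value of Jun in both libraries, which was so for no other member, but their interval overlapped that of monocytes each time. The fold from the highest to the lowest class was 2.81 and 3.8, compared with 14.7 and 16.3 for Fos.

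Junb, an AP-1 subunit that often restrains JUN, was the AP-1 gene with the clearest neutrophil peak. Neutrophils were at 1795 CPM (1684 to 1911) and 3565 (3489 to 3644), monocytes at 1958 (1586 to 2391) and 2179 (2004 to 2365), macrophages at 799 and 899, T or NK cells at 620 and 657, tumor cells at 471 and 436, and CAF at 383 and 539. In the Combo library neutrophils exceeded monocytes beyond the intervals, and in the dual library the intervals of the 2 classes overlapped. Neutrophils of 500 to 700 and 700 to 1000 UMIs in the Combo library were at 1255 and 1219 CPM, below its monocytes. T or NK cells, low for most members, lay above tumor cells for Junb in the Combo library, and in the dual library their interval of 446 to 837 CPM reached below the tumor value.

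Egr1, a zinc finger transcription factor downstream of the ERK pathway, was at 930 CPM (851 to 1015) and 1870 (1814 to 1927) in neutrophils and at 1081 (810 to 1414) and 975 (859 to 1102) in monocytes. CAF came next at 651 (586 to 721) and 718 (664 to 775), followed by macrophages at 594 and 511, tumor cells at 366 and 321, T or NK cells at 162 and 170, and myogenic cells at 215 and 107. CAF were above tumor cells for Egr1 in both libraries. In the Combo library they were also above macrophages beyond the intervals.

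Atf3 is a stress-induced factor that largely represses its targets. Among the classes with 20 cells in both libraries, it separated the phagocytes from the rest more sharply than the AP-1 genes did. Monocytes were at 653 CPM (446 to 921) and 541 (456 to 638), neutrophils at 589 (526 to 656) and 717 (682 to 752), and macrophages at 500 (467 to 534) and 473 (456 to 490). All other classes with 20 cells in both libraries were at or below 127 CPM, with CAF at 127 and 61.5, tumor cells at 69.6 and 51.0 and myogenic cells at 107 and 53.3. T or NK cells had 0 Atf3 UMIs in the dual library, where the interval reached 54.4 CPM, and 58.1 CPM (30.9 to 99.3) in the Combo library. The 42 osteoclast-like cells of the dual library, themselves of the phagocyte lineage, had 15.7 CPM (1.91 to 56.8). The 23 dendritic cells of the Combo library were at 227 CPM (168 to 301), between its macrophages and CAF. In the 21 endothelial cells of the dual library Atf3 was at 131 CPM (52.6 to 269.5).

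Nr4a1 and Nr4a3 are orphan nuclear receptors, and Nr4a1 is widely used as a reporter of antigen receptor signaling in lymphocytes. Nr4a1 was highest in monocytes, at 265 CPM (141 to 453) and 392 (320 to 476). Macrophages were at 96.0 and 129, CAF at 130 and 87.8, T or NK cells at 44.2 (9.12 to 129) and 84.9 (51.1 to 132), neutrophils at 27.4 and 82.0, and tumor cells at 25.8 and 19.7. Nr4a3 was nearly absent from tumor cells, with 37 UMIs (0.345 CPM) in the dual library and 65 UMIs (0.492 CPM) in the Combo library. Its highest value was 312 CPM (242 to 398) in the 23 dendritic cells of the Combo library, above every other class of that library beyond the intervals. The next were T or NK cells at 49.1 (24.5 to 87.9) and neutrophils at 31.8 (25.0 to 40), which overlapped. In the T or NK cells of the dual library Nr4a3 had 0 UMIs, with an interval that reached 54.4 CPM.

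Ier2, a small nuclear protein induced by growth factors, had its highest value in monocytes and differed little from neutrophils to T or NK cells in the dual library. Monocytes were at 1122 CPM (845 to 1460) and 750 (649 to 863), neutrophils at 561 and 735, macrophages at 551 and 463, CAF at 494 and 365, tumor cells at 468 and 339 and T or NK cells at 428 and 331. In the dual library, each class from neutrophils down to T or NK cells overlapped its neighbor.

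Dusp1, the phosphatase that turns off p38 and JNK and so closes the loop, had its highest value in neutrophils in both libraries. Neutrophils were at 1890 CPM (1776 to 2009) and 3553 (3476 to 3631), monocytes at 1509 (1185 to 1894) and 1954 (1789 to 2131), macrophages at 932 and 782, CAF at 563 and 505, tumor cells at 451 and 343, T or NK cells at 310 and 179, and myogenic cells at 188 and 147. In the Combo library every step of this order except the last lay beyond the intervals. In the dual library the intervals of neutrophils and monocytes overlapped. Neutrophils of 500 to 700 and 700 to 1000 UMIs in the Combo library were at 1302 and 1122 CPM, below its monocytes. Dusp1 had the widest fold of the members over the classes of that library where the lowest was not 0, 24.2 from neutrophils to myogenic cells.

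**Figure D2:**
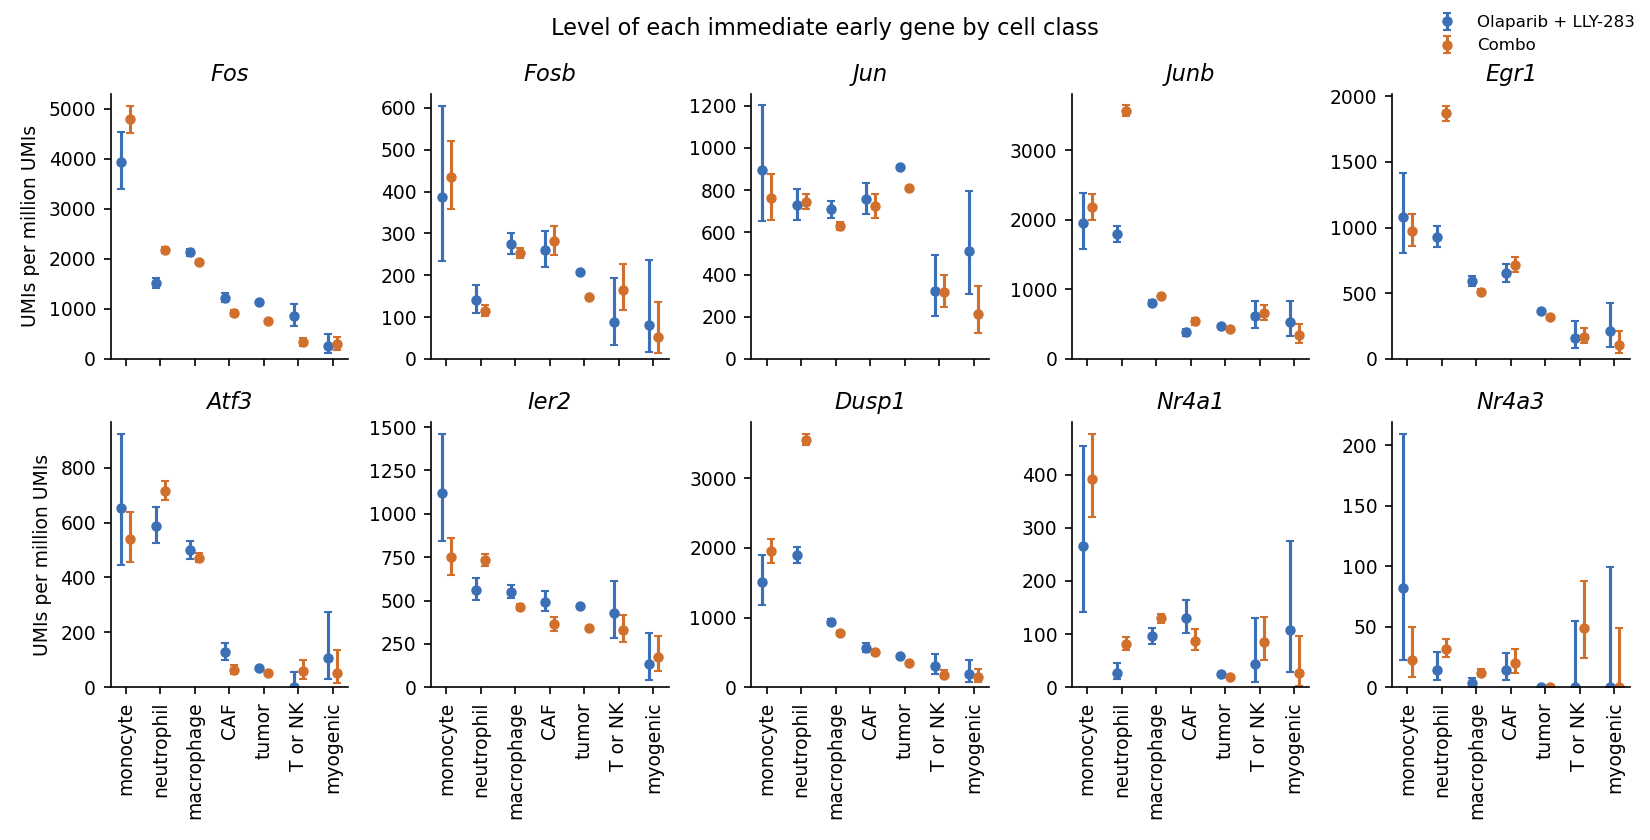
UMIs per 1000000 UMIs (y axis, a separate scale for each gene) of the 10 members in 7 cell classes (x axis) of the dual (blue) and Combo (orange) libraries, with exact 95% Poisson intervals. Junb, Egr1 and Dusp1 peak in the neutrophils of the Combo library at 3565, 1870 and 3553 CPM, Fos in monocytes, and Jun is nearly level from monocytes to tumor cells.

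The members' patterns were compared over 17 points, each a class in a library with at least 20 cells, as Pearson's r of log2(CPM + 1). The points share 2 libraries, differ in depth and are not independent, so r is a description. Among pairs of members the highest r was 0.95, for Egr1 and Dusp1, followed by Dusp1 and Junb at 0.89 and Dusp1 and Ier2 at 0.87. The lowest were 0.32, for Nr4a1 with Jun and for Nr4a3 with Jun. Among 366 genes outside the set with at least 100 UMIs in most of the points, those most like the summed members were Zfp36, which encodes an mRNA decay factor, at 0.92, Ier3 at 0.91, the adhesion receptor gene Cd44 at 0.91, Rbms1 at 0.90 and the survival gene Mcl1 at 0.90. Zfp36, Ier3 and Mcl1 were also on the wider list of immediate early genes.

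Detection per cell was compared after reducing each cell to 1000 UMIs, because deeper cells show more genes at the same level. Shallower cells were left out, and shares are those expected over all such reductions. A UMI of at least 1 member was then expected in 89.2% (88.6 to 89.8) of 9885 tumor cells of the dual library and 76.5% (74.9 to 78.1) of 2692 of the Combo library, a difference of -12.7 percentage points (-14.4 to -11.0). Without reduction the difference was -0.081 points. The macrophage shares were 94.2% of 646 cells and 89.9% of 504, a difference of -4.29 points (-7.62 to -1.17). In neutrophils they were 95.1% (87.6 to 98.7) and 99.6% (99.1 to 99.9), but only 77 of the 648 neutrophils of the dual library had 1000 UMIs, against 1066 of 1197. No class was known to lack these genes, so the level given by free RNA could not be read from them. The lowest shares were those of myogenic cells, 72.8% of 16 cells and 62.3% of 22, with medians of 1141 and 883.5 UMIs over all cells of the class.

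Single members were seen in fewer cells. In tumor cells Fos had a UMI in 55.8% and 37.2% of the reduced cells, the widest gap, of -18.7 points (-20.7 to -16.6). Jun was found in 50.8% and 41.9%, Ier2 in 33.9% and 24.2%, Dusp1 in 33.4% and 25.0%, Junb in 35.9% and 32.6%, Egr1 in 29.1% and 23.8%, Fosb in 17.8% and 12.1%, Atf3 in 6.08% and 4.47% and Nr4a1 in 2.57% and 1.95%. The interval of the difference included 0 for Nr4a1 and Nr4a3 and lay below 0 for the other 8 members. Such differences are not given for all genes, so these numbers of members, here and in the other classes, have no background beside them. In macrophages Fos had a UMI in 72.5% and 62.1% of cells, Dusp1 in 52.0% and 42.7% and Egr1 in 34.5% and 28.7%, and the intervals of these 3 differences lay below 0. Those of the other 7 included 0, and among them Junb at 48.5% and 50.9%, Nr4a1 at 8.64% and 11.6% and Nr4a3 at 0.251% and 1.07% had the higher share in the Combo library.

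In neutrophils the members differed in direction. After reduction Junb had a UMI in 69.8% and 85.9% of neutrophils, Egr1 in 47.8% and 65.0%, and Dusp1 in 61.0% and 82.4%, differences of 16.1, 17.2 and 21.3 points with intervals above 0. Jun, at 48.4% and 36.3%, was lower by -12.1 points (-23.4 to -0.90), and Fosb, at 19.2% and 9.18%, by -10.0 points (-20.3 to -2.51). For Fos, Atf3, Ier2, Nr4a1 and Nr4a3 the interval included 0. Reduction evens detection but not levels that differ with depth. In neutrophils of 1000 to 1500 UMIs, CPM in the Combo library over the dual library was 1.02 for Junb, 0.92 for Egr1 and 1.35 for Dusp1. It was 1.12 for Jun and 0.515 for Fosb. The part of depth in these shares was not tested.

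In a single draw of the reduction, the tumor cells of the dual library carried a median of 3 of the 10 members and those of the Combo library 2. None of the members was seen in 10.6% and 23.4% of them, and 5 or more in 15.3% and 11.1%. Macrophages had a median of 3 members in each library, with 5 or more in 33.3% and 29.0% of cells, and neutrophils a median of 4, with 5 or more in 36.4% of 77 and 47.8% of 1066. UMIs of the members were thus not seen in a small group of cells alone but in most cells of these classes. The part of free RNA in this spread was not tested.

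**Figure D3:**
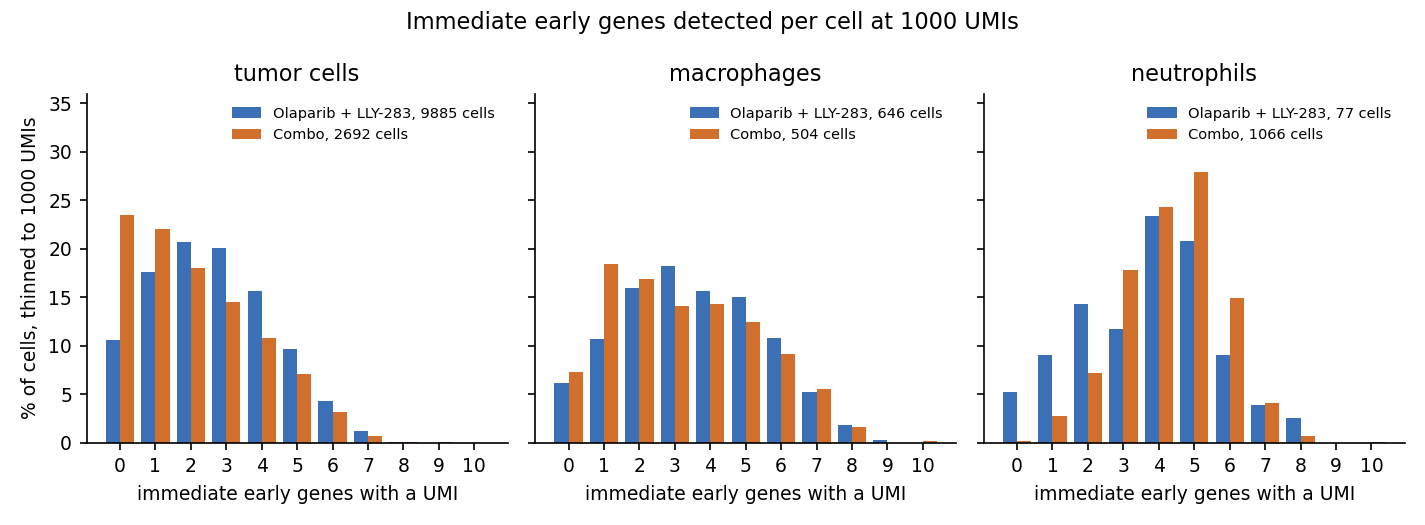
Share of cells (y axis, %) by the number of the 10 immediate early genes with at least 1 UMI (x axis) after each cell was reduced to 1000 UMIs, in tumor cells, macrophages and neutrophils of the dual (blue) and Combo (orange) libraries. Tumor cells without any member were 10.6% and 23.4%, and the neutrophil bars of the dual library rest on 77 cells.

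Within tumor cells the members were found together. In the same draw, a Jun UMI was seen in 62.2% of the 5496 tumor cells with a Fos UMI and 36.7% of the 4389 without in the dual library, and in 62.7% of 1003 and 30.4% of 1689 in the Combo library. Egr1 went from 20.3% to 35.7% and from 16.5% to 37.0%, and Dusp1 from 24.7% to 41.4% and from 16.6% to 41.7%. Macrophages showed the same direction, with Egr1 in 40.2% of cells with Fos and 15.2% of those without in the dual library and 38.6% and 12.2% in the Combo library. In the neutrophils of the Combo library Dusp1 went from 72.0% to 87.4%, but Jun was at 35.2% of cells with Fos and 41.6% of those without, and Atf3 at 35.2% and 38.6%. In those of the dual library Egr1 was at 34.0% of the 47 cells with Fos and 56.7% of the 30 without. Atf3 was at 27.7% and 36.7% and Fosb at 19.15% and 20%. Junb, at 76.6% and 60%, was higher in cells with Fos, as were Jun, Ier2, Dusp1, Nr4a1 and Nr4a3. The intervals overlapped for every member. The difference between classes was not tested.

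The comparison of the libraries asked which members differed when anti-PD-1 was added to Olaparib and LLY-283. In tumor cells 9 of the 10 members were lower in the Combo library. The share of all genes in each direction is not given, here or in the other classes. Counts of members or of heat shock genes by direction thus have only the median of all genes beside them. Fos had a ratio of Combo over dual of 0.660 (0.655 to 0.666), a log2 ratio of -0.60, followed by Fosb at -0.48, Ier2 at -0.47, Atf3 at -0.45, Dusp1 and Nr4a1 at -0.39, Egr1 at -0.19, Jun at -0.17 and Junb at -0.11. Nr4a3 was at 0.51 (-0.09 to 1.14) on its 37 and 65 UMIs. None of the 10 was past 2-fold, where 2.78% of 17174 genes were at least 2-fold higher and 1.66% at least 2-fold lower in the Combo library. The median log2 ratio of the members was -0.39 and that of all genes 0.06. For the sum of the members the log2 ratio was -0.35 (-0.36 to -0.34), a ratio of 0.784.

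This tumor difference depended on the depth of the cells compared. Tumor cells of 2000 to 5000 UMIs were at 4515 CPM in 1422 cells of the dual library and 2046 CPM in 66 of the Combo library, a ratio of 0.453 (0.412 to 0.497). Those of 5000 to 20000 UMIs were at 4179 CPM in 7390 cells and 2208 CPM in 231, a ratio of 0.528 (0.515 to 0.542). Between 20000 and 50000 UMIs, where the libraries held 888 and 1166 tumor cells, the values were 3789 and 3623 CPM, a ratio of 0.956 (0.949 to 0.964), and 5 members were lower and 5 higher in the Combo library. In that range Fos was still lower, at a ratio of 0.805, as were Ier2 at 0.825 and Fosb at 0.837, whereas Junb was at 1.24. The 1199 tumor cells of the Combo library with 50000 UMIs or more, a depth that fewer than 20 cells of the other library reached, were at 3045 CPM. Below 2000 UMIs, 205 and 73 tumor cells were at 4393 and 3600 CPM, a ratio of 0.819 (0.714 to 0.937). Within the Combo library, the tumor cells of 2000 to 20000 UMIs thus had lower levels than its shallower and deeper tumor cells. The tumor ratio also moved with the mitochondrial share, from 0.839 (0.834 to 0.845) below 1% to 0.700 (0.687 to 0.713) at 2 to 5%. At 5 to 10%, in 59 and 38 cells, it was 1.23 (1.09 to 1.39), and at 10 to 20% 0.882 (0.717 to 1.09). The part of depth and of mitochondrial share in the tumor difference was not tested.

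The 11 heat shock genes, a further sign of stress and handling, were nearly level in tumor cells. They summed to 9278 and 9690 CPM, with a median log2 ratio of 0.02. None was past 2-fold, beside 2.78% of all genes at least 2-fold higher and 1.66% at least 2-fold lower. Neutrophil markers in the tumor class, present in 10 of 10 in each library, summed to 153 and 235 CPM and macrophage markers, also 10 of 10, to 53.0 and 66.0 CPM, and their part in the result was not tested. Tumor cells rich in G2 and mitosis genes were at 3911 and 2813 CPM of the members and the other tumor cells at 4253 and 3531, so the Combo value was the lower in each, and in both libraries the members were lower in the cells rich in these genes. Those cells were also deeper, with medians of 11613 against 8102 UMIs in the dual library and 59238 against 42436 in the Combo library. The part of depth was not tested.

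In macrophages the libraries were closer. The summed log2 ratio was -0.11 (-0.14 to -0.08). Of the 10 members, 7 were lower in the Combo library, between -0.25 for Dusp1 and Ier2 and -0.08 for Atf3, and Junb at 0.17, Nr4a1 at 0.43 (0.19 to 0.68) and Nr4a3 at 1.76 (0.57 to 3.25) were higher. Nr4a3 was the only member past 2-fold, with 6 UMIs (3.45 CPM) and 72 UMIs (11.7 CPM), where 2.52% of 10986 genes were at least 2-fold higher and 2.14% at least 2-fold lower. It passed the minimum of 20 UMIs only through the Combo library, so nothing is read from its being past 2-fold. The members' median was -0.13 and that of all genes 0.05. The direction of the sum turned with depth, from a ratio of 0.473 (0.408 to 0.545) in cells of 500 to 2000 UMIs to 0.854 (0.80 to 0.91) at 2000 to 5000 and 1.16 (1.09 to 1.24) at 5000 to 20000, where the dual library held 30 cells. It moved with the mitochondrial share as well, from a ratio of 1.03 (0.997 to 1.07) in cells with less than 1% mitochondrial UMIs and sums of 6239 and 6224 CPM at 1 to 2% to a ratio of 0.670 (0.630 to 0.712) at 2 to 5%. The 7 monocyte markers, none at 0, summed to 985 and 1256 CPM in macrophages. The part of these in the result was not tested. Macrophages rich in the complement genes C1qa, C1qb and C1qc were at 5917 and 5585 CPM of the members, and those poor in them at 7543 and 6724 CPM. The lower level in C1q-rich macrophages was thus seen in both libraries. C1q-rich cells were also deeper, with medians of 2264 against 1725 UMIs in the dual library and 14336 against 8776 in the Combo library. The part of depth was not tested.

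Neutrophils taken whole went the other way, but their direction turned with depth. Over all neutrophils the summed level was higher in the Combo library by a log2 ratio of 0.73 (0.69 to 0.78), a ratio of 1.66, and 9 of the 10 members were higher, whereas in cells of 500 to 1000 UMIs the summed log2 ratio was -0.60. Nr4a1 was at 1.58 (0.82 to 2.45), with 15 and 188 UMIs, Nr4a3 at 1.12 (0.07 to 2.39), with 8 and 73 UMIs, and Egr1 at 1.01 (0.87 to 1.14), and these 3 were past 2-fold. Nr4a1 and Nr4a3 passed the minimum of 20 UMIs only through the Combo library, so their being past 2-fold is not counted as a result, which leaves Egr1. It is 1 of 10 members, beside the 8.16% of all genes, and nothing is read from it. Genes that passed the minimum only through the Combo library were not taken out of that 8.16%, so the shares are not strictly alike. Egr1 was at 0.98 without a mitochondrial limit, 0.89 with marker cuts 2 times as high and 0.78 as a mean over cells. It was at 1.19 with TMM factors and 1.11 with doublets kept. Just short of 2-fold were Junb at 0.99 and Dusp1 at 0.91, whose intervals reached 1.09 and 1.01. Fos was at 0.53, Ier2 at 0.39, Atf3 at 0.28 and Jun at 0.03 (-0.13 to 0.19), and Fosb alone was lower, at -0.29 (-0.66 to 0.10). Neutrophils differed widely between the libraries: 8.16% of 8004 genes were at least 2-fold higher and 14.2% at least 2-fold lower in the Combo library. The median of all genes was -0.21 and that of the members 0.72.

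**Figure D4:**
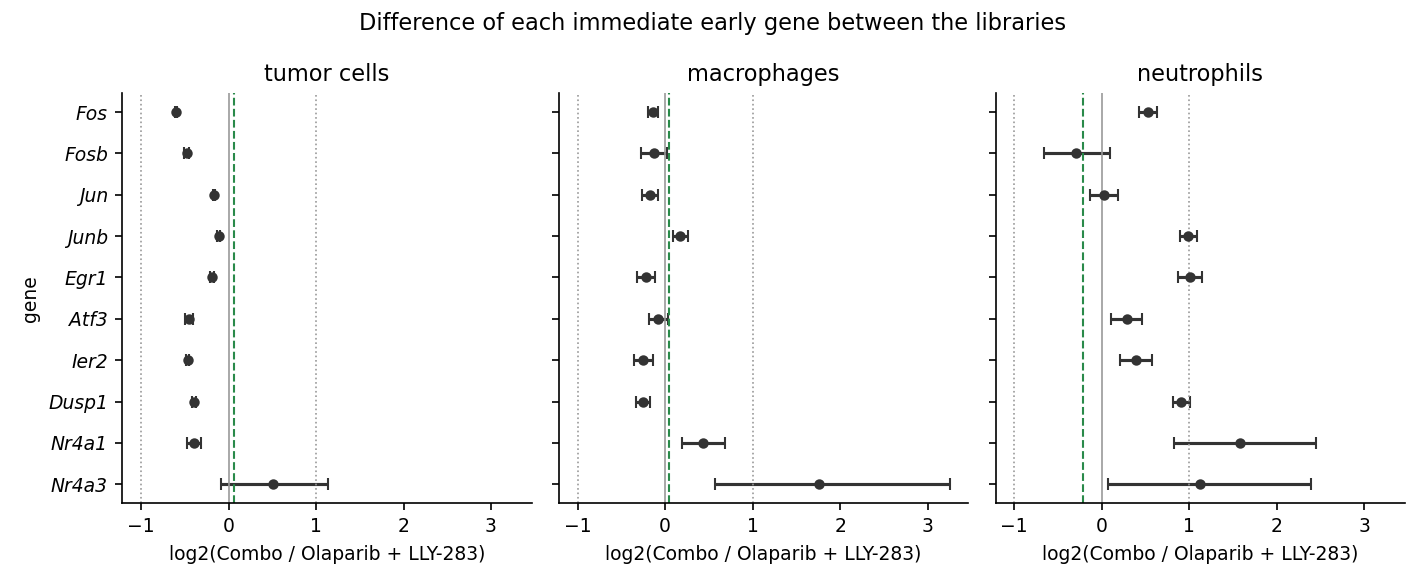
Log2 ratio of CPM, Combo over dual (x axis), of each member (y axis) in tumor cells, macrophages and neutrophils, with exact 95% intervals that cover counting error only. The green dashed line is the median of all genes tested in the class and the dotted lines mark 2-fold; 9 members lie below 0 in tumor cells and 9 above 0 in neutrophils, where the sum was below 0 (-0.60) in cells of 500 to 1000 UMIs.

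In narrow ranges of depth below 1500 UMIs the neutrophils of the Combo library were not higher beyond the intervals. In cells of 500 to 700 UMIs, with means of 592 and 604 UMIs, the sum was 8869 CPM (8485 to 9266) in 381 cells of the dual library and 5918 CPM (5207 to 6698) in 70 of the Combo library, a ratio of 0.667 (0.583 to 0.761). At 700 to 1000 UMIs it was 8416 CPM in 190 cells and 5611 CPM in 61, a ratio of 0.667 (0.585 to 0.758), and at 1000 to 1500 UMIs 8708 CPM in 45 cells and 9208 CPM in 176, a ratio of 1.06 (0.955 to 1.17). The higher level of the Combo library as a whole was thus carried by its deeper neutrophils, 370 cells of 1500 to 2000 UMIs at 15022 CPM and 516 of 2000 to 5000 UMIs at 14263 CPM, depths at which the dual library had fewer than 20 cells in each range.

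Single members turned as well. In neutrophils of 500 to 1000 UMIs Fos was at a log2 ratio of -1.12, Ier2 at -0.99, Dusp1 at -0.87, Junb at -0.70, Egr1 at -0.51 and Atf3 at -0.17, against values above 0 over all neutrophils. Fosb was at 0.44, Jun at 0.32 and Nr4a1 at 2.19. The Nr4a1 value rests on few UMIs, since all neutrophils of the dual library together held 15 of that gene. At 1000 to 1500 UMIs Egr1 was at -0.12, Fos at -0.29 and Ier2 at -0.75, and Junb, Dusp1 and Atf3 at 0.03, 0.44 and 0.67. In the 20 and 520 neutrophils of 2000 to 20000 UMIs, Fosb was at -1.40, Jun at -0.77 and Ier2 at -0.04. The other members with a value there were higher in the Combo library, Junb at 2.33, Dusp1 at 2.19, Egr1 at 1.91, Atf3 at 1.80 and Fos at 0.46. By mitochondrial share the summed ratio in neutrophils was 1.54 (1.48 to 1.61) below 1% and 2.13 (1.85 to 2.45) at 5 to 10%. The part of depth and of mitochondrial share in the neutrophil difference was not tested. The narrow depth ranges were chosen after the data were seen.

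Neutrophils rich in the chemokine transcripts Ccl3 and Ccl4 were at 8157 and 11863 CPM of the members, and those poor in them at 8223 and 15111 CPM. Among the chemokine-rich cells Atf3 was the higher in each library, at 812 CPM against 361 in the dual library and 959 against 504 in the Combo library, and Fos the lower, at 1128 against 1905 and 1477 against 2798. Chemokine-rich cells were 57.6% and 45.0% of the neutrophils.

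Several other measures moved with the difference over all neutrophils. All 11 heat shock genes were lower in the neutrophils of the Combo library, with a median log2 ratio of -0.55 and sums of 4633 and 3058 CPM. The median of all genes in neutrophils was itself -0.21. Hspb1 was at least 2-fold lower, beside 14.2% of 8004 genes, so nothing is read from it. The 8 tumor markers summed to 331 CPM in the neutrophils of the dual library, with Krt7, Epcam, Cldn4 and Cldn6 at 0, and to 170 CPM in those of the Combo library, with 3 of the 8 at 0. The 11 CAF markers summed to 629 and 280 CPM, with none at 0. In cells of 500 to 700 UMIs the heat shock genes summed to 4459 and 5894 CPM. The part of these in the result was not tested.

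**Figure D5:**
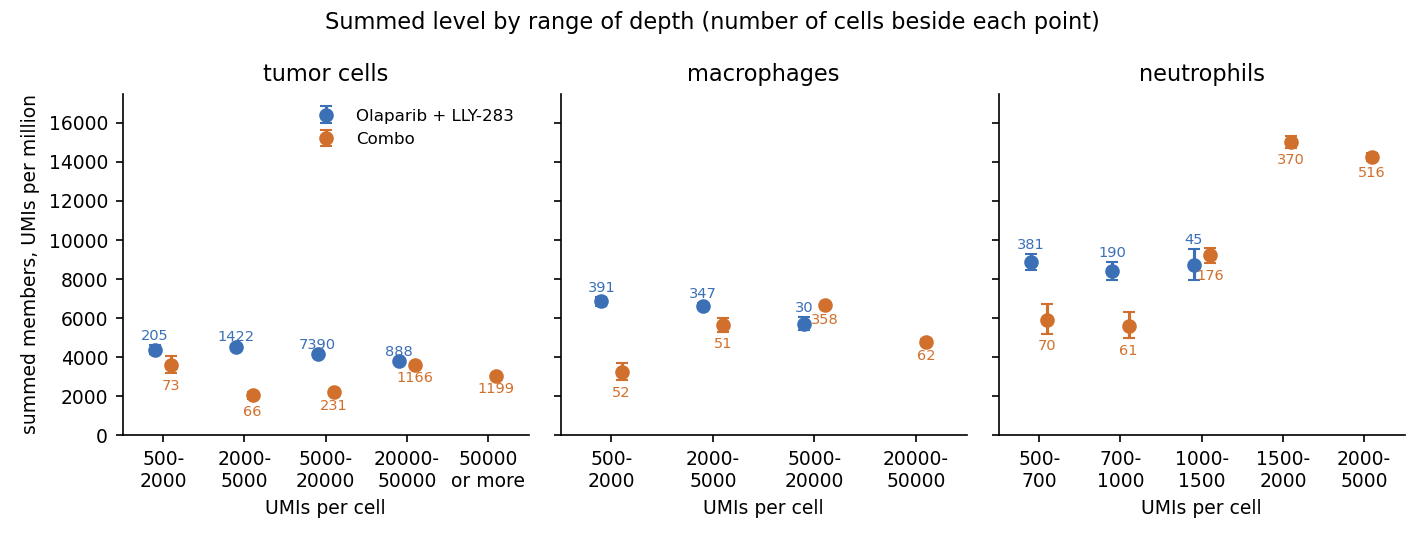
Summed level of the 10 members in UMIs per 1000000 UMIs (y axis) by range of depth (x axis, UMIs per cell) in tumor cells, macrophages and neutrophils of the dual (blue) and Combo (orange) libraries, with exact 95% Poisson intervals and the number of cells beside each point. Ranges with fewer than 20 cells are left out, and cells within a range can still differ in mean depth; tumor cells of 5000 to 20000 UMIs are at 4179 and 2208 CPM and those of 20000 to 50000 at 3789 and 3623 CPM, and neutrophils of the Combo library lie below the dual library at 500 to 1000 UMIs.

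In the smaller classes the sums differed by less or on few UMIs. Monocytes were at a log2 ratio of 0.11, CAF at -0.13, T or NK cells at -0.27 and myogenic cells at -0.60. In T or NK cells Fos was at 855 CPM (650 to 1106) in the 60 cells of the dual library and 340 CPM (268 to 425) in the 35 cells of the Combo library, a log2 ratio of -1.33, with intervals that did not overlap. Of the 8 members with enough UMIs there, Fos alone was past 2-fold. Of 2276 genes, 6.94% were at least 2-fold higher and 5.8% at least 2-fold lower. The share of T or NK cells with a Fos UMI after reduction differed by -19.7 points with an interval of -41.9 to 3.95. In CAF Atf3 alone of the 10 members was past 2-fold, at 127 and 61.5 CPM on 71 and 56 UMIs. Its log2 ratio was -1.04 (-1.57 to -0.52), where 3.35% of 7363 genes were at least 2-fold higher and 2.09% at least 2-fold lower. In myogenic cells Jun alone of the 3 members with enough UMIs was past 2-fold, at -1.26 (-2.31 to -0.22) on 19 and 16 UMIs. Of 737 genes, 4.21% were at least 2-fold higher and 5.83% at least 2-fold lower. Nothing is read from these single members being past 2-fold. These classes held between 27 and 154 cells in a library.

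Genes around the members were examined by lists. Of a wider list of 43 immediate early genes, 41 were in the files, and 40, 39 and 38 passed the filter in tumor cells, macrophages and neutrophils. None was past 2-fold in either direction in tumor cells (median -0.14) or macrophages (median 0.04). In neutrophils 6 were at least 2-fold higher in the Combo library and 3 at least 2-fold lower, beside the 8.16% and 14.2% of all genes, with a median of 0.62. The 6 were Dusp2, a nuclear MAP kinase phosphatase, at a log2 ratio of 2.06 on 4 and 70 UMIs, the antiproliferative gene Btg2 at 1.54, from 729 to 2126 CPM, Cebpd at 1.18, Egr3 at 1.18, Egr2 at 1.17 and Zfp36l1 at 1.09. Dusp2, Egr2 and Egr3, the last 2 on 10 UMIs each in the dual library, passed the minimum of 20 UMIs only through the Combo library, so nothing is read from their being past 2-fold. The 3 lower were Klf4 at -1.44, Ccn1 at -1.11 and Ier5l at -1.07. Of the 38, Btg2, Cebpd and Zfp36l1 are left as higher, beside the 8.16% of all genes. Genes passing only through the Combo library were not taken out of that share. The 3 lower are under the 14.2%, so nothing is read from either group. These are ratios over all neutrophils, in which the sum of the members turned with depth. Of 17 upstream regulators, which include Srf, the ELK factors, Creb1 and the MAP kinases, 16 were in the files. None of these 16 was past 2-fold in tumor cells or macrophages, where their medians were 0.02 and 0.13. In neutrophils 14 passed the filter, with a median of -0.11, and only Rps6ka1 was past 2-fold, at 5.48 CPM on 3 UMIs and 12.7 CPM on 29, beside the same 8.16% of all genes, and it too passed the minimum only through the Combo library.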

How the data were processed

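Single-cell RNA of EMT6 tumors was analysed in 2 libraries, 1 per group (Olaparib + LLY-283, called dual, and Combo), each from 3 pooled mice. The authors deposited UMI counts per gene and cell, without normalization. The matrix header names Cell Ranger 6.1.2, whereas the methods of the study name another version, the reference is mm10, and the submitters' processing notes also name bcl2fastq 5.0.1 and Seurat 4.1.0. All gene identifiers are in GENCODE M21.

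The filter kept cells that had 200 genes or more and a mitochondrial share below 20%. Scrublet (scanpy 1.11.5) called 0 doublets at its automatic threshold, so the top-scoring 2055 (12.8%) and 284 (4.77%) cells were removed, at an expected 0.8% per 1000 cells. Cells were given a class by marker UMIs per 10000 UMIs, with cuts set after the counts were seen (2 for tumor cells, 10 for macrophages and monocytes, 40 for neutrophils, 5 for dendritic and T or NK cells, 100 for CAF). Cells passing the cuts of 2 lineages were set apart (441 and 455), and 1842 and 543 stayed without a class. Macrophages, monocytes, dendritic and osteoclast-like cells were treated as a joint lineage. A cell passing several of their cuts was kept, in the class whose marker rate was highest relative to its cut. UMIs were summed per class and given as CPM. Genes with at least 20 UMIs in a class were compared, with 0.5 added to each count for the background. CPM have exact Poisson intervals, ratios exact conditional binomial, shares Clopper-Pearson and differences Newcombe intervals, all at 95%. Shares after reduction to 1000 UMIs were computed exactly as mean numbers of cells over all reductions. Reads without replicate libraries allow no test. The procedure was tested on simulated data. TMM scaling used edgeR 4.0.16 in R 4.3.3, and the rest scipy 1.17.1, numpy 2.4.6 and pandas 2.3.3 in Python 3.11.15.

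The text names all 10 members, the members of the fixed lists past 2-fold, and the genes most like the members over the classes. The members and lists were chosen with earlier results of these data known, and the chemokine, complement and mitosis genes and the narrow depth ranges of neutrophils after the counts were seen. A cell was called rich in these with 30, 30 and 10 or more of their UMIs per 10000.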

Additional observations from a re-analysis of the deposited data

Results flagged for a closer look

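The direction of the summed members differed between cell classes of the same libraries: the log2 ratio of Combo over dual was 0.73 in neutrophils and -0.35 in tumor cells, a difference of 1.08 that was not tested, since each group is 1 library. In neutrophils of 500 to 1000 UMIs the log2 ratio was -0.60.

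Immediate early gene UMIs were also found in cells that the comparisons do not use. Those with 20% or more mitochondrial UMIs carried 2688 CPM (2279 to 3149) of the members in 81 cells of the dual library and 1713 CPM (1645 to 1783) in 1582 cells of the Combo library, and 4121 and 3104 per 1000000 UMIs when mitochondrial UMIs were left out of the total. The cells used were at 4221 and 3638 CPM over all classes, and at 4270 and 3684 per 1000000 UMIs when mitochondrial UMIs were left out of the total.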

How the results depend on the processing

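No result of the comparisons between the libraries came from a test, so the alternatives are given as values. Ranges of mitochondrial share, and the narrower ranges of depth in tumor cells and macrophages, are not among these alternatives. The summed log2 ratio, reported as -0.35 in tumor cells, -0.11 in macrophages and 0.73 in neutrophils, kept its sign under every alternative except that macrophages came to 0.028 in cells of 2000 to 20000 UMIs and neutrophils to -0.60 in cells of 500 to 1000 UMIs. The latter range and that of 1000 to 1500 UMIs, where neutrophils were at 0.081, were chosen after seeing the data, and Egr1 turned to -0.51 and -0.12 in them. In cells of 2000 to 20000 UMIs tumor cells were at -0.94 and neutrophils at 1.21, 3 members were past 2-fold in tumor cells instead of 0, and the share of tumor cells with a member differed by -27.8 points instead of -12.7. That range held 8812 and 297 tumor cells. The share of all genes past 2-fold in them is not given, so nothing is read from the 3 members. The values for tumor cells, macrophages and neutrophils were -0.41, -0.18 and 0.92 with TMM factors, -0.41, -0.16 and 1.03 with median-ratio size factors, and -0.36, -0.075 and 0.67 with marker cuts 2 times as high. For tumor cells and neutrophils they were -0.33 and 0.80 with doublets kept, -0.39 and 0.58 as a mean over cells, and -0.36 and 0.63 without mitochondrial and ribosomal protein genes. Macrophages were at -0.018 with cells of 2 lineages given to the higher class. The share of tumor cells differed by -8.28 points at 2000 UMIs and by -0.081 without reduction. The causes of these shifts were not tested. For single members in the 3 classes, 29 or more of 30 log2 ratios kept their sign under each alternative with 30 values, 29 of 29 with the higher marker cuts, and 24 of 27 in cells of 2000 to 20000 UMIs, where Atf3 in neutrophils moved most, by 1.52. In neutrophils of 500 to 1000 UMIs 2 of 9 members kept their sign and in those of 1000 to 1500 UMIs 5 of 8. The share of all genes past 2-fold rose from 4.44% to 25.2% in tumor cells, from 4.66% to 17.2% in macrophages and from 22.3% to 32.0% in neutrophils when genes with 1 UMI counted, and was 1.63%, 0.83% and 16.2% at 100 UMIs. No paired analysis was possible because each group is 1 library. Leaving out the 39 shared barcodes, an alternative chosen after seeing the data, changed no direction.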

Other observations

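Cells that took no class or passed the markers of 2 lineages also carried the members. The 1842 and 543 cells without a class were at 5082 CPM (5026 to 5138) and 4947 CPM (4871 to 5025), and the 441 and 455 cells of 2 lineages at 4675 and 6264 CPM, in the dual and Combo libraries. Cells removed as doublets were at 4107 and 4043 CPM.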
